A study of Mus musculus with 21 samples.

Results

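The effect of an siRNA against Hsp90ab1 on gene expression was measured in TGFb1-treated fibroblasts of the normal mouse mammary gland. The comparison sets 3 libraries labelled NF1_siHsp90ab1_TGFβ1 against 3 labelled NF1_siCtr_TGFβ1, which are 6 of the 21 libraries of the series, and it pairs them by replicate number. The libraries were chosen by their labels alone, and all genes were examined. NF1 is a numbered line of fibroblasts from normal mammary glands of FVB/n mice, and CAF1 is a numbered line from mammary carcinoma of MMTV-PyMT mice, which carry a polyoma virus oncogene under the mouse mammary tumour virus promoter. Every cell culture was transfected at 60% confluence with 100 nM siRNA in DharmaFECT 1 and kept in DMEM with 10% fetal bovine serum. In the 6 libraries TGFb1 was added at 5 ng/mL 5 h after transfection and kept on for 43 h, so that RNA was taken 48 h after transfection. The control cells therefore carried a control siRNA and TGFb1 as well, and cells without transfection were not analysed here. Further groups used as a reference, with 3 libraries each, were NF1 with control siRNA and vehicle, NF1 with an siRNA against Hsp90aa1 and TGFb1, and CAF1 with control or Hsp90ab1 siRNA and vehicle. Each cell type is represented by 1 line, and the labels do not say that replicates are separate cultures or animals, so each p-value below speaks of the scatter among the libraries at hand, which may be technical.

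HSP90 is an ATP-driven chaperone that helps kinases, steroid receptors and many other client proteins to reach and keep their active shape. The cytosol holds an inducible form encoded by Hsp90aa1 and a constitutive form encoded by Hsp90ab1, while Hsp90b1 encodes the form of the endoplasmic reticulum and Trap1 that of the mitochondrion. TGFb1 turns fibroblasts towards the contractile, matrix-producing myofibroblast state. Type I interferon signals through JAK kinases to STAT transcription factors and IRF9, which bind the interferon-stimulated response element (ISRE) in promoters, and the integrated stress response raises the transcription factor ATF4, which drives genes of amino acid uptake and synthesis.

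Library totals were 37402932 to 53887400 estimated counts with control siRNA and 38015981 to 52852364 with siHsp90ab1, and mitochondrial genes took 1.93% to 2.81% and 1.95% to 2.17% of them. Summed levels of 12 fibroblast markers, led by Col1a1, were 22256 to 28785 CPM (counts scaled to the TMM-normalised library size) in controls and 25614 to 28890 CPM with siHsp90ab1. The sums of 10 epithelial markers were 1.10 to 1.84 and 1.52 to 1.73 CPM, and those of 12 immune markers, led by Cd14, were 15.03 to 16.5 and 15.3 to 19.2 CPM, with Cd3e, Lyz2 and Tyrobp at 0. For 10 endothelial markers, of which Cldn5, Emcn and Tie1 were at 0, the sums were 1.47 to 1.78 and 2.13 to 2.55 CPM. For 6 glial markers, led by Mbp and with Sox10 at 0, they were 5.33 to 6.31 and 6.94 to 7.53 CPM, and these groups too did not overlap. The sums of 8 pericyte and smooth muscle markers were 7.79 to 14.2 and 7.35 to 12.7 CPM, with Kcnj8 at 0, and those of 7 adipocyte markers 0.182 to 0.311 and 0.116 to 0.281 CPM, with Plin1 at 0. In bulk RNA, fewer cells of a type and less RNA per cell cannot be told apart.

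Hsp90ab1 itself (chromosome 17, 45567775 to 45573271, minus strand, GRCm38) checked the labels. Its level was 3782, 3448 and 3120 CPM in control replicates 1 to 3 and 327, 429 and 623 CPM with siHsp90ab1. Each treated library lay far below every control library. In the fit the gene was 7.41-fold lower (log2 fold change -2.89 ± 0.21 standard error, n = 3 and 3, adjusted p = 4.19e-06, edgeR quasi-likelihood test with Benjamini-Hochberg adjustment, as for every adjusted p below). On the length-scaled TPM values, which allow genes to be compared, it went from 2841 ± 161 (SD, n = 3) to 398.5 ± 130 (SD, n = 3), or 14.03% of the control.

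The other cytosolic gene, Hsp90aa1, was at 625, 500 and 451 TPM in the controls and at 230, 260 and 246 TPM with siHsp90ab1, a mean of 46.7% of the control. The groups did not overlap, but the log2 difference of -1.04 ± 0.31 in the count fit had an adjusted p of 0.0590. It passed in 4 of the other fits, among them DESeq2 with an adjusted p of 0.0390 and the fit of the 6 libraries alone with 0.00194, and without siHsp90ab1 replicate 1 its adjusted p was 0.281. The summed mean TPM of both cytosolic genes was 3367 in controls and 644 with siHsp90ab1, and the share of Hsp90ab1 in that sum was 84.5% and 60.9%. Hsp90b1 was at 627 ± 61.9 TPM and 588.5 ± 2.57 TPM (SD, n = 3 each), and Trap1 was at 61.6 ± 7.35 and 62.2 ± 6.35 TPM (SD, n = 3 each). Neither passed the test, with adjusted p-values of 0.611 and 0.874.

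Because the cytosolic transcripts are alike, the stretch they share is shown. Over 2175 aligned bases of the coding sequences of the GENCODE vM21 transcripts, taken as the longest open reading frames, Hsp90aa1 and Hsp90ab1 were 76.3% identical. The translated proteins of 733 and 724 residues were 86.7% identical. There were 2 identical runs of 19 bases or more, and the longest, of 33 bases, is in capitals below, at coding bases 52 to 84 of Hsp90aa1 and 37 to 69 of Hsp90ab1.
Hsp90aa1: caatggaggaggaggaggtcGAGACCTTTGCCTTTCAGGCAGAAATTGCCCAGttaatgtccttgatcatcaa
Hsp90ab1: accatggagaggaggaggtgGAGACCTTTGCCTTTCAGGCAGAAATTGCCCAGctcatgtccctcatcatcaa
The sequences of the siRNA pool were not used here, and whether the pool or the assignment of reads between these genes bears on the Hsp90aa1 value was not tested.

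**Figure D1:**
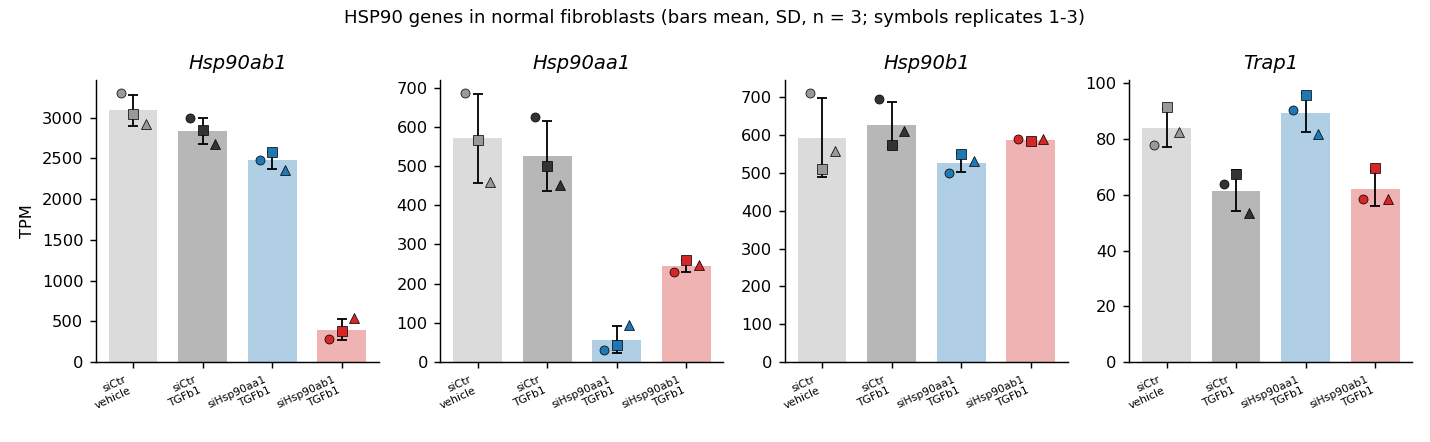
TPM of the 4 HSP90 genes in normal fibroblasts with control siRNA and vehicle, control siRNA and TGFb1, siHsp90aa1 and TGFb1, and siHsp90ab1 and TGFb1, with bars at the mean, error bars of 1 SD (n = 3) and symbols for replicates 1 to 3. Hsp90ab1 was at 14.03% and Hsp90aa1 at 46.7% of the TGFb1 control with siHsp90ab1, while the differences of Hsp90b1 and Trap1 did not pass the test.

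Of 15230 genes tested, 902 (5.92%) passed an adjusted p of 0.05 with siHsp90ab1. There were 404 higher genes (2.65%) and 498 lower genes (3.27%), and over 2-fold 45 (0.295%) rose and 104 (0.683%) fell. The median log2 fold change of all genes tested was -0.01, with 7851 negative and 7379 positive values. Of the 15 largest falls by the naming rule, all but Hsp90ab1 itself and Hap1 are on the lists of antiviral genes or of guanylate-binding proteins and immunity GTPases. The count was 409 in a fit without the replicate number, all of them among the 902. It was 374 without siHsp90ab1 replicate 1, 450 without siHsp90ab1 replicate 2, 388 without control replicate 1 and 448 without control replicate 2.

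**Figure D2:**
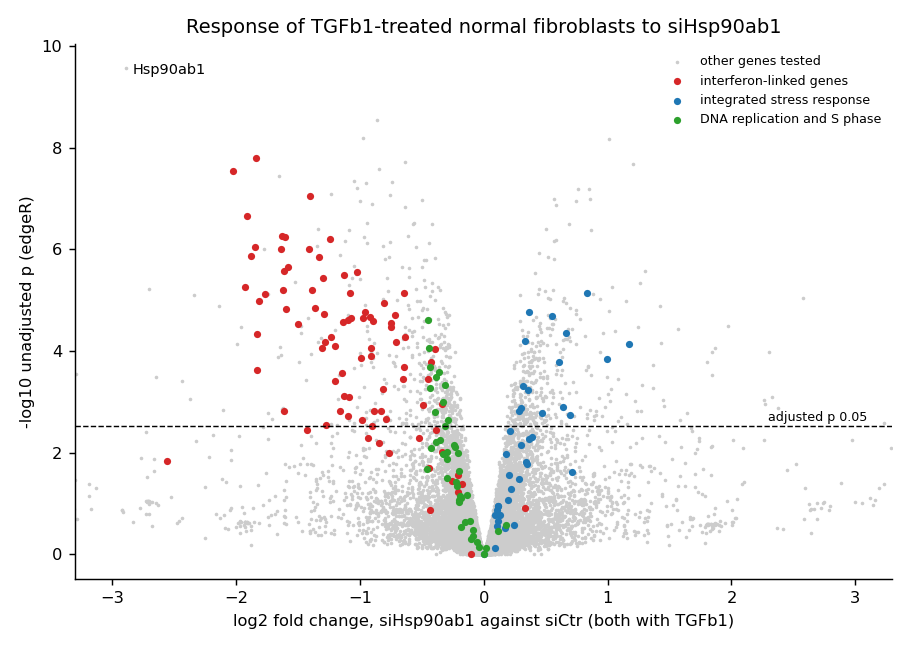
Each gene tested, by its log2 fold change with siHsp90ab1 against control siRNA (x axis) and the -log10 of its unadjusted edgeR p (y axis), with members of 3 interferon-linked lists in red, the integrated stress response in blue and DNA replication in green. The dashed line marks an adjusted p of 0.05, 46 genes beyond 3.3 on the x axis are not drawn, and the red points lie mostly at the upper left, above the dashed line, and the blue points lie right of zero.

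Antiviral genes that interferon switches on were lower almost throughout. Of 44 tested members of that list 39 fell, 0 rose, and the median log2 fold change was -1.11, against 3.27% of all genes falling and a median of -0.01. At an unadjusted p under 0.05 edgeR had 42 lower and 0 higher, and DESeq2 called 36 lower and 0 higher. The 39 ranged from -1.93 to -0.40, and in each of them all treated libraries were below all controls. In the whole list this held for 43 of 44 members, against 11.1% of all genes tested. The members that did not pass, named after their values were seen, were Isg15, Ddx60, Bst2, Rtp4 and Ifi27, of which Ifi27 was the member with a positive value (log2 fold change 0.33).

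Ifit3, which encodes an RNA-binding antiviral protein, was at 164, 141 and 70.4 CPM in the controls and at 31.8, 31.2 and 30.9 CPM with siHsp90ab1. The controls spread more than 2-fold and the treated libraries hardly at all, and the groups did not overlap. Ifit3 fell 3.81-fold (log2 -1.93 ± 0.29, adjusted p = 0.000939). Oas3, a sensor of double-stranded RNA that activates RNase L, was at 14.2, 14.3 and 8.79 CPM in the controls against 3.01, 3.75 and 3.05 CPM, a fall of 3.76-fold (log2 -1.91 ± 0.23, adjusted p = 0.000118). Mx1, a GTPase that blocks viral replication, was at 33.1, 28.2 and 18.9 CPM against 7.43, 7.19 and 7.51 CPM. It fell by 1.84 ± 0.18 on the log2 scale (adjusted p = 4.50e-05).

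The chemokine gene Cxcl10, which draws T cells, was at 346.5, 299 and 143 CPM in the controls and at 78.1, 72.4 and 62.2 CPM with siHsp90ab1. It fell 3.59-fold (log2 -1.85 ± 0.24, adjusted p = 0.000268), and the related Cxcl11 fell by 1.63 ± 0.21. Control replicate 3 was the lowest control for Ifit3, Oas3, Mx1 and Cxcl10, yet it was still above the 3 treated libraries. Rsad2, which encodes viperin, was at 127, 93.3 and 39.5 CPM against 32.1, 25.1 and 20.8 CPM and fell by 1.64 ± 0.22 (adjusted p = 0.000274). Ifit3b, Cmpk2, Phf11d and Oas2 fell by 1.82, 1.77, 1.62 and 1.61 on the log2 scale. Hap1, which encodes a huntingtin-binding trafficking protein and is on no interferon list here, fell by 1.66 ± 0.17, from 25.5, 16.1 and 12.8 CPM to 6.67, 4.82 and 5.38 CPM.

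The guanylate-binding proteins and immunity-related GTPases attack the vacuoles of intracellular pathogens. Of 21 gene models tested, of which 2 carry the name Gbp6, 18 fell and 0 rose, with a median log2 fold change of -1.39 against 3.27% of all genes falling. The unadjusted count was 20 lower and 0 higher, DESeq2 called 16 lower and 0 higher, and the edgeR count was 11 without the replicate number in the fit. Gbp5 was at 8.90, 9.002 and 4.58 CPM in the controls and at 1.86, 1.58 and 1.92 CPM with siHsp90ab1. Its fall of 4.08-fold (log2 -2.03 ± 0.21, adjusted p = 4.79e-05) followed that of Hsp90ab1 as the next in size among the genes that met the naming rule. Iigp1 was at 55.7, 46.5 and 34.1 CPM against 10.7, 11.8 and 13.7 CPM, and fell by 1.88 ± 0.26 (adjusted p = 0.000356). Gvin1 fell by 1.62 ± 0.42 with an adjusted p of 0.0327, which was 0.110 without the replicate number, and it also lost its call in DESeq2 and without any 1 of the 6 libraries but siHsp90ab1 replicate 3. Members of this family have near-identical copies, and the deposited estimates may divide reads between them.

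Genes of antigen presentation on MHC class I fell in 14 of 22 cases and rose in 0, against 3.27% of all genes falling, with a median of -0.58. All 22 had a negative value, 21 were lower and 0 higher at an unadjusted p under 0.05, and DESeq2 called 16 lower and 0 higher. H2-K1, a classical class I heavy chain, was at 625, 599 and 580 CPM in the controls and at 371, 368 and 412.5 CPM with siHsp90ab1, a fall of 1.56-fold (log2 -0.64 ± 0.10, adjusted p = 0.00106). Tap1, a subunit of the peptide transporter, was at 115, 122 and 112 CPM against 48.1, 56.5 and 64.1 CPM. It fell by 1.07 ± 0.18 (adjusted p = 0.00212), and H2-Q4 fell by 0.97 ± 0.17. Without siHsp90ab1 replicate 1 the count of falling members was 9.

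Among interferons, their receptors, STATs and interferon regulatory factors, 8 of 30 genes fell and 0 rose, against 3.27% of all genes falling, with a median of -0.26, while the unadjusted count was 17 lower and 0 higher and DESeq2 called 9 lower and 0 higher. Stat2 was at 210.3, 177 and 147 CPM in the controls and at 81.5, 78.8 and 93.5 CPM with siHsp90ab1, a fall of 2.09-fold (log2 -1.07 ± 0.16, adjusted p = 0.000701). Tlr3, an endosomal receptor of double-stranded RNA, fell by 1.34 ± 0.17, and for both genes the groups did not overlap. Of the genes that stand above these factors in the pathway, the interferon receptor subunit Ifnar1 had a log2 fold change of -0.06 ± 0.06 and the kinase Tyk2 one of 0.01 ± 0.07, both named after their values were seen. Neither passed, with adjusted p-values of 0.688 and 0.975. Of the 30 genes on the list 26 had a negative value and 4 a positive one. Ifnar1 and Tyk2 therefore do not stand for the other upstream genes.

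Ifnb1, the gene of interferon beta, was looked at after the values of its targets were known. It had 1, 1 and 2 estimated counts with siHsp90ab1 and 4, 13 and 5 in the controls. The ratio of control to treated counts, scaled for library size, was 5.76 with an exact 95% interval of 1.96 to 23 that covers counting error only. In the fit its log2 fold change of -2.32 had an adjusted p of 0.0796 and did not pass. The same gene had 43, 36 and 39 counts in NF1 with control siRNA and vehicle and 53, 53 and 14 counts with siHsp90aa1 and TGFb1.

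**Figure D3:**
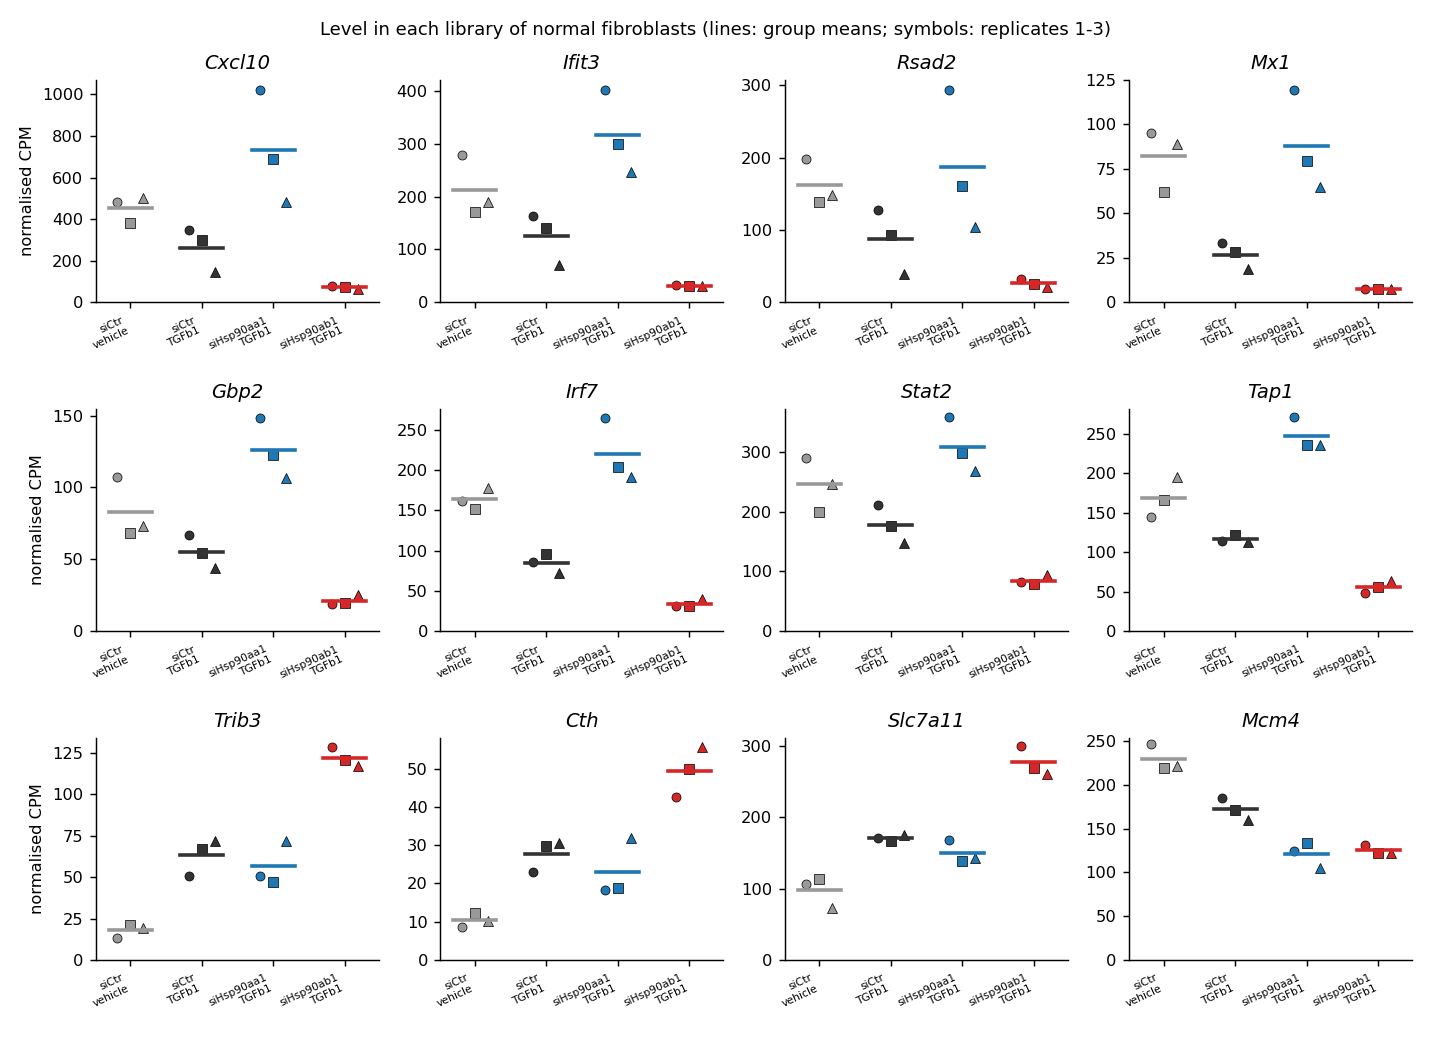
Normalised CPM of 12 list members, chosen after their values were seen, in each library of normal fibroblasts, by group on the x axis, with lines at group means and symbols for replicates 1 to 3. Interferon-linked genes such as Cxcl10 and Stat2 were lowest in the siHsp90ab1 libraries, and the stress response genes Trib3, Cth and Slc7a11 were highest there.

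Promoters of genes that fell are shown because ISRE letters were frequent among them. The motif searched was the half-site GAAA, any 2 bases (NN) and GAAA again, on both strands, in the 300 bases from 250 before to 50 after the start of each RefSeq gene (GRCm38.p6). It was present in 3.99% of 27025 genes of that table and in 3.77% of the 10426 tested genes that matched by symbol. It was present in 62 of 371 matched genes that fell (16.7%) and in 14 of 299 matched genes that rose (4.68%). Among antiviral genes that fell it was in 14 of 30 (46.7%), against 17 of 33 matched tested members of that list (51.5%). Among GTPase genes that fell it was in 9 of 10 (90.0%), against 10 of 11 matched tested members (90.9%). Of MHC class I genes 3 of 12 that fell had it, against 5 of 18 matched tested members (27.8%). In each of these lists fallen members thus carried the motif no more often than the list as a whole. A link between the motif and the fall was not tested. A match is a description of letters, not a measured site. The 150 bases before the start of 5 fallen genes follow, with matches in capitals, which read as the reverse complement where they begin with TTTC, and which overlap in Irgm1.
Ifit3 (chr19:34583379-34583528, plus strand): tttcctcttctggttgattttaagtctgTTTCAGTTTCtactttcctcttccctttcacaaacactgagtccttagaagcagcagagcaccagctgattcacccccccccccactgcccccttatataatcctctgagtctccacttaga
Oas3 (chr5:120777660-120777809, minus strand): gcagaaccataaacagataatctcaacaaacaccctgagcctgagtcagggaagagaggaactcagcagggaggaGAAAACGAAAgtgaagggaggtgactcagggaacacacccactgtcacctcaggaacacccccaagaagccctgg
Rsad2 (chr12:26456453-26456602, minus strand): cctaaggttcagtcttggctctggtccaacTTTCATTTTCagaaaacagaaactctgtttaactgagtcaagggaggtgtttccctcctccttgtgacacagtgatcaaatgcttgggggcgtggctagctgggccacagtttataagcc
Parp11 (chr6:127446690-127446839, plus strand): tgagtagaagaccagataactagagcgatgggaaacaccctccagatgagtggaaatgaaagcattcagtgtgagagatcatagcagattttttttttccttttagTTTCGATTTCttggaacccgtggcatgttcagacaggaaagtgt
Irgm1 (chr11:48871421-48871570, minus strand): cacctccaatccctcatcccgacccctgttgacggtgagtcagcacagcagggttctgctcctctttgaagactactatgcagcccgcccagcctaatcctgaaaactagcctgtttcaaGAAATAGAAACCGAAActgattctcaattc
The first base of the match lay 122 bases before the start in Ifit3, 75 in Oas3, 120 in Rsad2 and 44 in Parp11, and 30 and 24 bases before it in Irgm1.

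Set beside the other NF1 groups, the fallen antiviral genes were low against both. Their list had a median level of 72.4 CPM in the TGFb1 control, 34.8 CPM with siHsp90ab1, 118 CPM with control siRNA and vehicle, and 134 CPM with siHsp90aa1 and TGFb1. All 39 that fell were below the mean of the vehicle libraries, and 24 of the 39 had also fallen with TGFb1 against vehicle, a comparison in which 36.4% of all genes tested passed and 18.6% were lower, and which shares the TGFb1 control libraries. The direct test of siHsp90ab1 against siHsp90aa1 uses no control library but the same siHsp90ab1 libraries. In it 6420 genes (42.2%) passed, 3095 higher (20.3%) and 3325 lower (21.8%). Over the whole lists 42 of 44 antiviral genes were lower and 1 higher. Of the GTPase genes 21 of 21 were lower, and of the MHC class I genes 20 of 22, with 0 higher in both. Genes picked as fallen were low in these siHsp90ab1 libraries by choice, so their place against vehicle or siHsp90aa1 was partly set beforehand. Of the 39 fallen antiviral genes 38 were lower, as were 18 of 18 fallen GTPase genes and 14 of 14 fallen MHC class I genes.

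Mx1, for example, was at 120, 79.5 and 64.9 CPM with siHsp90aa1 and TGFb1 and at 95.3, 62.2 and 88.8 CPM with vehicle. Both groups were above the TGFb1 control and far above siHsp90ab1. The log2 difference between the siRNAs was -3.54 ± 0.19 (adjusted p = 7.01e-09). By the same direct test Trim30d differed by -4.02 ± 0.22, Tnfsf10, the death ligand TRAIL, by -3.57 ± 0.38, and Gbp5 by -3.64 ± 0.21. Part of the direct list had no call against the control in the fit of all libraries: Ggt5 differed by -4.77 ± 0.27 between the siRNAs and by -0.34 ± 0.44 from the control, and Ly6a by -3.48 ± 0.20 and -0.48 ± 0.19. The complement gene C4b was lower by 3.55 ± 0.49 in the direct test, with -1.26 ± 0.50 against the control (adjusted p = 0.183). In the fit of the 6 libraries alone Ly6a and C4b passed against the control, with adjusted p-values of 0.0309 and 0.0134.

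On the higher side of the direct test Acsbg1, an acyl-CoA synthetase, had the largest difference among genes that met the naming rule. It was at 50.6, 41.5 and 40.4 CPM with siHsp90ab1, 29.1, 26.5 and 25.9 CPM in the control and 4.29, 4.65 and 5.65 CPM with siHsp90aa1, where the vehicle libraries had 0.563, 0.809 and 0.153 CPM. Its groups did not overlap, with a log2 difference between the siRNAs of 3.16 ± 0.39 (adjusted p = 8.77e-06), but the 0.69 ± 0.35 against the control did not pass (adjusted p = 0.320, and 0.00130 in the fit of the 6 libraries alone). Alcam, Ccbe1, Sema7a, Trim66, Pdgfa and Npr3 had differences of 2.25 to 2.51 in the direct test, and none of the 6 passed against the control in the fit of all libraries. In the fit of the 6 libraries alone Alcam, Ccbe1, Trim66, Pdgfa and Npr3 passed, with adjusted p-values of 0.00769, 0.0360, 0.0141, 0.00547 and 0.00130, and Npr3 also passed in DESeq2 (0.0207). Col7a1 differed by 2.40 ± 0.21, and it is the one of these genes that also rose against the control.

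Of 38 tested genes of the integrated stress response 15 rose and 0 fell, with a median log2 fold change of 0.30, against 2.65% of all genes rising. At an unadjusted p under 0.05 edgeR had 25 higher and 0 lower, and DESeq2 called 20 higher and 0 lower. All 38 had a positive value, and in 33 of them every treated library was above every control, against 10.5% of all genes. The count was 8 without the replicate number in the fit. It was 6 without siHsp90ab1 replicate 1, 9 without siHsp90ab1 replicate 2, 9 without control replicate 1 or control replicate 2, and 8 without control replicate 3.

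Cth, which makes cysteine from cystathionine, was at 22.9, 29.8 and 30.6 CPM in the controls and at 42.6, 49.9 and 55.7 CPM with siHsp90ab1. It rose 1.78-fold (log2 0.83 ± 0.13, adjusted p = 0.00105). Nars, an asparaginyl-tRNA synthetase, was at 385, 382 and 401 CPM against 503, 498 and 505 CPM, and rose by 0.37 ± 0.06 (adjusted p = 0.00183). Slc7a1, a carrier of arginine and lysine, rose by 0.55 ± 0.09, from 272, 281 and 295.5 CPM to 447, 416 and 372 CPM. Trib3, a pseudokinase that ATF4 induces, was at 50.7, 66.8 and 71.7 CPM against 128, 121 and 117 CPM, and rose by 0.99 ± 0.20 (adjusted p = 0.00661, and 0.124 without the replicate number), and it also lost its call without siHsp90ab1 replicate 1. For all 4 genes the groups did not overlap.

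Further members with a call were Psph, Gars, Slc7a3, Slc1a4, Aldh18a1, Slc3a2, Vldlr, Asns, Shmt2, Slc7a5 and Slc7a11. The Atf4 transcript itself, named after its value was seen, had a log2 fold change of 0.12 ± 0.07, which did not pass. All 15 rising members were also higher with TGFb1 against vehicle, where 17.8% of all genes were higher, and 14 of the 15 were higher than with siHsp90aa1. The 15 were picked with the siHsp90ab1 libraries that the direct test reuses. Over the whole list 27 of 38 were higher and 0 lower in the direct test, against 20.3% of all genes higher. The median level of the list was 135 CPM with vehicle, 190 CPM in the TGFb1 control, 259.5 CPM with siHsp90ab1 and 173 CPM with siHsp90aa1. The ATF4-type motif TGATGNAAT, searched on both strands in the same promoters, was in 5 of 30 matched members (16.7%), in 1 of 11 matched members that rose (9.09%), in 2.01% of the genes that rose and in 0.575% of all tested genes. Matches of the 2 motifs were counted separately, whether or not they overlap.

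Of 42 tested genes of DNA replication 11 fell and 0 rose, against 3.27% of all genes falling, with a median of -0.23 and 38 negative values. The unadjusted count was 25 lower and 0 higher, and DESeq2 called 13 lower and 0 higher. Mcm4, a subunit of the replicative helicase, was at 185, 172 and 160 CPM in the controls and at 131, 122 and 123 CPM with siHsp90ab1. It fell by 0.45 ± 0.08 on the log2 scale (adjusted p = 0.00219). The list had a median level of 45.1 CPM in the TGFb1 control, 38.9 CPM with siHsp90ab1 and 42.3 CPM with siHsp90aa1 and TGFb1. In the direct test between the siRNAs 8 of the 42 genes were higher and 4 lower, with a median of 0.08. Mcm6 fell by 0.44 ± 0.09 and the DNA ligase Lig1 by 0.44 ± 0.09, with adjusted p-values of 0.110 and 0.119 without the replicate number. The count was 1 without the replicate number in the fit. It was 2 without siHsp90ab1 replicate 1, 4 without siHsp90ab1 replicate 2, 2 without control replicate 1 and 5 without control replicate 3.

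Of 40 mitotic genes 39 had a negative value, with a median of -0.17. In this list 3 fell and 0 rose, against 3.27% of all genes falling and 2.65% rising. The 3 were Top2a, Nusap1 and Melk, which fell by 0.43, 0.42 and 0.33 on the log2 scale. Each lost its call without the replicate number (adjusted p of 0.104 to 0.168) and without siHsp90ab1 replicate 1 or 2 or control replicate 1. Among p53 targets, CDK inhibitors and G1 cyclins 4 of 35 rose and 2 fell, with a median of 0.09. The CDK inhibitor gene Cdkn2b was at 30.3, 28.3 and 32.6 CPM in the controls and at 46.1, 34.3 and 43.6 CPM with siHsp90ab1, and rose by 0.44 ± 0.07 (adjusted p = 0.00108). Sesn2, a sensor of leucine that p53 and ATF4 both induce, rose by 0.54 ± 0.10, and Trp53inp1 by 0.69 ± 0.13. Without the replicate number the adjusted p-values of Cdkn2b, Sesn2 and Trp53inp1 were 0.0537, 0.0615 and 0.0592. With siHsp90aa1 and TGFb1 they were at 54.0, 43.9 and 55.0, at 63.7, 65.2 and 85.3, and at 14.1, 10.4 and 13.4 CPM.

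Of 25 co-chaperone genes of HSP90 3 rose and 0 fell, against 2.65% of all genes rising, with a median of 0.00. Ahsa2, related to an activator of the HSP90 ATPase, was at 34.5, 35.5 and 36.7 CPM in the controls and at 45.2, 50.5 and 47.3 CPM with siHsp90ab1, and rose by 0.42 ± 0.07 (adjusted p = 0.00212). The immunophilin Fkbp4 rose by 0.29 ± 0.07 and Chordc1 by 0.33 ± 0.08, with adjusted p-values of 0.0940 and 0.112 without the replicate number, and both lost the call without siHsp90ab1 replicate 2 or 3 or control replicate 3. Of 21 heat shock factor targets 2 rose and 0 fell, with a median of 0.07. Hspb1, which encodes the small heat shock protein HSP27, was at 69.9, 87.1 and 76.9 CPM against 126, 137 and 113 CPM and rose by 0.69 ± 0.08 (adjusted p = 0.000150). Hsph1 rose by 0.51 ± 0.09 (adjusted p of 0.213 without the replicate number), and Hsf1, the heat shock factor, had a log2 fold change of -0.20 ± 0.06 that did not pass (adjusted p = 0.0633).

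Known client genes of HSP90 (kinases, receptors and Argonaute) had 3 rises and 1 fall in 45 tested, with a median of -0.01. Over all genes 2.65% rose and 3.27% fell. Lats1, a kinase of the Hippo pathway, rose by 0.38 ± 0.08, from 147, 136 and 146 CPM to 190, 186 and 183 CPM. Ago2, the slicing Argonaute, rose by 0.25 ± 0.06, and Ahr, the dioxin receptor, fell by 0.54 ± 0.13. Ago2 and Ahr lost their calls without the replicate number (adjusted p-values of 0.225 and 0.0653) and without siHsp90ab1 replicate 2 or control replicate 1 or 2, and Lats1 without control replicate 2. These values are transcript levels and do not show the amount of client protein. Of 34 proteasome subunit genes 0 rose and 0 fell in edgeR, with a median of 0.02, 1 higher and 1 lower at an unadjusted p under 0.05, and 0 higher and 1 lower in DESeq2.

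Of 28 TGFb targets 2 rose and 1 fell, against 2.65% of all genes rising and 3.27% falling. Their median was 0.06 with siHsp90ab1 and 2.07 with TGFb1 against vehicle, where 23 were higher and 4 lower. Col7a1, the collagen of anchoring fibrils, was at 49.6, 28.9 and 42.5 CPM in the controls and at 79.5, 61.0 and 58.6 CPM with siHsp90ab1, where vehicle libraries had 4.73, 4.38 and 3.74 CPM. It rose by 0.73 ± 0.20 (adjusted p = 0.0384, and 0.0573 without the replicate number). Nox4, an oxidase that makes hydrogen peroxide, rose by 0.87 ± 0.19, from 0.733, 0.727 and 0.811 CPM to 1.07, 1.56 and 1.54 CPM. Id2, an inhibitor of basic helix-loop-helix factors, fell by 0.72 ± 0.17, from 5.82, 8.06 and 6.51 CPM to 3.43, 4.82 and 4.14 CPM (adjusted p of 0.0573 without the replicate number). The vehicle libraries had 15.5, 18.8 and 14.9 CPM of Id2. Of these called genes 2 were higher and 1, Id2, was lower with TGFb1 against vehicle, the same direction as with siHsp90ab1. Col7a1 lost its call without siHsp90ab1 replicate 1 or 2 or control replicate 2 or 3, Id2 without siHsp90ab1 replicate 1 or 3 or control replicate 1 or 2, and Nox4 without siHsp90ab1 replicate 2 or control replicate 1.

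Of 26 TGFb ligands, receptors and SMAD genes Ltbp1, which binds latent TGFb, rose by 0.34 ± 0.09 and the ubiquitin ligase Smurf1 fell by 0.32 ± 0.08. The share of all genes was 2.65% rising and 3.27% falling. Contractile genes had 0 rises and 1 fall in 25, with a median of 0.00, and the fall was that of Acta1 (log2 -0.89 ± 0.25, adjusted p = 0.0449), whose libraries overlapped. Ltbp1, Smurf1 and Acta1 lost their calls without the replicate number and without any 1 of siHsp90ab1 replicates 1 and 2 and the 3 control replicates. Cnn1, a calponin of smooth muscle, was at 18.3, 24.7 and 27.6 CPM against 14.5, 20.5 and 20.4 CPM (log2 -0.35 ± 0.13, adjusted p = 0.166). Acta2, the marker of myofibroblasts, named after its value was seen, had a log2 fold change of -0.27 ± 0.17, in groups that overlapped. No member passed in edgeR among 26 SRF and actin genes, 23 YAP targets and 20 collagens, whose medians were -0.01, 0.02 and 0.01. At an unadjusted p under 0.05 these lists had 3, 2 and 3 higher and 1, 2 and 1 lower members, and DESeq2 called 1, 0 and 0 higher and 1, 1 and 1 lower. In the edgeR fit of the 6 libraries alone, with the replicate number, the named members Srf, Ier2, Gadd45b, Col4a5, Col8a1 and Col18a1 passed, with adjusted p-values of 0.00374, 0.0238, 0.00788, 0.0117, 0.0109 and 0.0325. That fit called 1585 genes against 902 in the fit of all libraries, and named members were picked for the smallest p in the latter. The serum response factor gene Srf was at 151, 154.5 and 135 CPM against 98.1, 99.8 and 107 CPM, without overlap, but its log2 fold change of -0.52 ± 0.15 had an adjusted p of 0.0535. With siHsp90aa1 and TGFb1 Srf was at 95.7, 108.5 and 101 CPM.

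Among other matrix genes 2 of 35 rose and 0 fell, against 2.65% of all genes rising and 3.27% falling. Fbln5, an organiser of elastic fibres, was at 23.1, 21.8 and 29.0 CPM in the controls and at 41.9, 34.6 and 38.5 CPM with siHsp90ab1, and rose by 0.64 ± 0.14. Lamb1, a laminin chain, rose by 0.39 ± 0.11 (adjusted p = 0.0387, and 0.342 without the replicate number). Both lost their calls without siHsp90ab1 replicate 1 or control replicate 1 or 2. In collagen processing 1 of 26 rose, Pcolce2, an enhancer of the protease that trims procollagen, by 0.81 ± 0.15, from 5.73, 5.57 and 6.31 CPM to 11.7, 10.1 and 9.44 CPM. Among 29 matrix proteases and inhibitors Serpinf1, the gene of the antiangiogenic protein PEDF, rose by 0.45 ± 0.06 (adjusted p of 0.0797 without the replicate number). Timp3, a matrix-bound inhibitor of metalloproteases, was at 1005, 974 and 965 CPM against 436, 539 and 558 CPM. It fell 1.94-fold (log2 -0.96 ± 0.16, adjusted p = 0.00147), and Timp2 had -0.35 ± 0.10 with an adjusted p of 0.0575. With siHsp90aa1 and TGFb1 Timp3 was also low, at 462, 506 and 669.5 CPM, while Timp2 was at 568, 535 and 647 CPM.

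**Figure D4:**
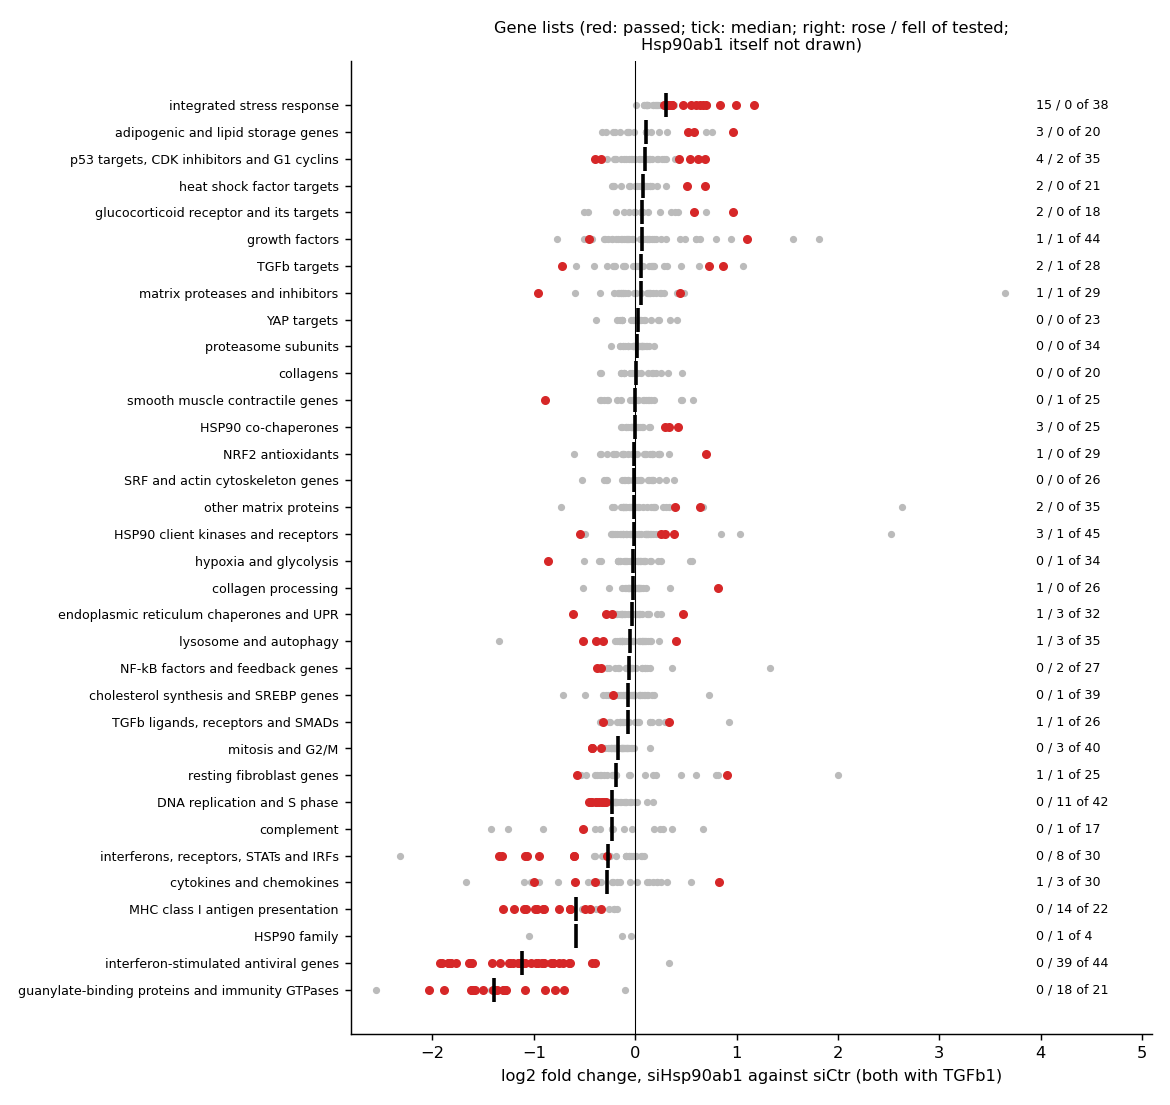
Log2 fold change with siHsp90ab1 of each tested member of 34 gene lists (x axis), ordered by list median (black tick), with members that passed in red and the counts of rises and falls at the right. The GTPase and antiviral lists lie lowest, at medians of -1.39 and -1.11, and the integrated stress response lies highest, at 0.30.

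Of 30 cytokine and chemokine genes outside the interferon list 1 rose and 3 fell, with a median of -0.28 and 20 negative values. For all genes the shares were 2.65% rising and 3.27% falling. At an unadjusted p under 0.05 edgeR had 9 lower and 1 higher, and DESeq2 called 5 lower and 1 higher. All treated libraries were below all controls in 8 members and above them in 2, against 11.1% and 10.5% of all genes. Il34, a ligand of the CSF1 receptor, was at 9.19, 10.0 and 11.1 CPM in the controls and at 19.5, 16.7 and 16.8 CPM with siHsp90ab1, and rose by 0.82 ± 0.18 (adjusted p = 0.00953). Il1rn, the antagonist of the interleukin 1 receptor, fell by 0.59 ± 0.14, and Il7, a survival factor of lymphocytes, by 1.00 ± 0.26 from below 2 CPM. Growth factors had 1 rise and 1 fall in 44, Gdf15 (1.11 ± 0.30, below 2 CPM) and the BMP antagonist Grem1 (-0.45 ± 0.12, with overlap). Resting fibroblast genes had Dpt higher by 0.90 ± 0.24 and Cxcl12 lower by 0.58 ± 0.16, both with overlap, in 25 tested. Of 27 genes of NF-kB and its feedback Sod2 fell by 0.34 ± 0.07 and Vcam1 by 0.38 ± 0.09, and in complement C1ra fell by 0.51 ± 0.12. All 10 of these genes lost their calls without siHsp90ab1 replicate 1, and all but Vcam1 without the replicate number (adjusted p of 0.0542 for Il34 to 0.509 for Grem1). Gdf15 also missed the threshold in the fit of the 6 libraries alone (0.0594).

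Lipid and metabolic genes had a few calls. Of 20 adipogenic and lipid storage genes 3 rose and 0 fell, against 2.65% of all genes rising and 3.27% falling. Plin2, which coats lipid droplets, was at 85.7, 80.2 and 86.9 CPM in the controls and at 151, 113 and 118 CPM with siHsp90ab1, and rose by 0.58 ± 0.07 (adjusted p = 0.000232). Angptl4, a secreted inhibitor of lipoprotein lipase, rose by 0.96 ± 0.17, and Dgat2, which makes triglyceride, by 0.52 ± 0.14. Angptl4 is also one of the 2 glucocorticoid receptor targets that rose in 18 tested, beside Tsc22d3 (0.58 ± 0.16). Slc7a11, the cystine carrier, was the 1 riser among 29 NRF2 genes (0.70 ± 0.19), Acaca the 1 faller among 39 sterol and SREBP genes (-0.22 ± 0.06), and Epas1 the 1 faller among 34 hypoxia genes (-0.86 ± 0.24). Without the replicate number Angptl4, Dgat2, Tsc22d3, Slc7a11, Acaca and Epas1 had adjusted p-values of 0.0534 to 0.221, and all but Angptl4 also lost the call without any 1 of siHsp90ab1 replicates 1 and 2 and the 3 control replicates.

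In the endoplasmic reticulum list 1 gene rose and 3 fell of 32, against 2.65% of all genes rising and 3.27% falling. Pdia6, a disulphide isomerase, was at 269, 281 and 263 CPM in the controls and at 156, 180 and 193 CPM with siHsp90ab1, and fell by 0.62 ± 0.12 (adjusted p = 0.00476). Creld2 fell by 0.23 ± 0.07, and Ern1, the gene of the stress sensor IRE1, rose by 0.47 ± 0.11. Creld2 lost its call in 10 of 15 other fits, among them that of the 6 libraries alone (adjusted p = 0.0596), Ern1 in 5 of 15, among them that without the replicate number (0.109), and Pdia6 without siHsp90ab1 replicate 1. Of 35 lysosome and autophagy genes 1 rose and 3 fell. Npc2, which hands cholesterol out of the lysosome, was at 169, 175 and 152 CPM against 117, 109 and 120 CPM and fell by 0.52 ± 0.08 (adjusted p = 0.00130). Becn1 fell by 0.32 ± 0.06 and Lamp1 by 0.39 ± 0.09 (adjusted p of 0.0507 without the replicate number).

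The largest rises by the naming rule were led by Hist1h1c, which encodes a linker histone. It was at 6.15, 8.69 and 4.47 CPM in the controls and at 29.96, 14.97 and 11.8 CPM with siHsp90ab1, and rose 2.74-fold (log2 1.45 ± 0.37, adjusted p = 0.0291). Stc2, a secreted inhibitor of the protease PAPP-A, was at 4.49, 4.37 and 2.88 CPM against 10.3, 11.3 and 7.53 CPM and rose 2.47-fold (log2 1.30 ± 0.19, adjusted p = 0.000549). Lpin3, a phosphatidate phosphatase, rose 2.30-fold, from 3.71, 3.36 and 3.35 CPM to 8.42, 8.21 and 7.31 CPM (log2 1.20 ± 0.12, adjusted p = 4.50e-05). Their groups did not overlap. With siHsp90aa1 and TGFb1 Hist1h1c was at 26.4, 8.01 and 11.5 CPM, Stc2 at 5.37, 4.67 and 4.32 CPM and Lpin3 at 2.17, 2.13 and 2.01 CPM. Usp17la (1.22 ± 0.30) and Hmga2, a chromatin protein of embryonic and tumour cells (1.08 ± 0.24), rose in each pair, with adjusted p-values of 0.273 and 0.522 without the replicate number. The libraries of Hmga2 overlapped, and it lost its call without siHsp90ab1 replicate 3 or control replicate 1 or 2. Usp17la lost it without any 1 of the 6 libraries, and Hist1h1c without siHsp90ab1 replicate 1 or 2 or control replicate 1 or 3.

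Zbtb18, a transcriptional repressor, was at 20.6, 21.1 and 24.7 CPM in the controls and at 43.3, 45.3 and 44.8 CPM with siHsp90ab1. It rose 2.01-fold (log2 1.01 ± 0.09, adjusted p = 2.53e-05). Acp1, a low molecular weight tyrosine phosphatase, was at 13.7, 15.3 and 19.99 CPM against 33.1, 33.0 and 33.8 CPM, a rise of 2.05-fold (log2 1.03 ± 0.16, adjusted p = 0.000939). Adm2, a peptide of the calcitonin family, rose by 1.01 ± 0.17, and Nek3, Dtx4, Dnajc24 and Lrig3 by 0.94, 0.94, 0.88 and 0.86 on the log2 scale. Tmem154 rose by 0.98 ± 0.25, and lost its call without the replicate number (adjusted p = 0.0597) and without any 1 of the 6 libraries but control replicate 3. Between the siRNAs Acp1 differed by 0.18 ± 0.15 (adjusted p = 0.376) and Nek3 by -0.08 ± 0.14 (adjusted p = 0.709), and neither difference passed.

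The same siRNA in CAF1 with vehicle, in libraries that share none with the NF1 comparison, lowered Hsp90ab1 from 2050 ± 68.9 to 211 ± 60.6 TPM (SD, n = 3 each). Hsp90aa1 was at 759 ± 122.7 TPM in the CAF1 controls and at 362 ± 67.2 TPM with siHsp90ab1 (SD, n = 3 each), or 47.7% of the control. Its CAF1 groups did not overlap, but the difference did not pass in edgeR. There 360 genes (2.36%) passed, 196 higher (1.29%) and 164 lower (1.08%). In both lines 210 genes changed the same way, 106 higher and 104 lower, and 0 changed in opposite ways. They were 23.3% of the NF1 calls and 58.3% of the CAF1 calls. Zbtb18 was at 10.1, 8.59 and 9.97 CPM in the CAF1 controls and at 21.6, 22.8 and 21.3 CPM with siHsp90ab1, with a log2 fold change of 1.19 ± 0.10 (adjusted p = 7.56e-06). Acp1 rose there by 1.06 ± 0.16, Dnajc24 by 0.96 ± 0.14, Hmga2 by 0.99 ± 0.24 and Lpin3 by 0.67 ± 0.11, and Timp3 fell by 0.95 ± 0.16.

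The antiviral, GTPase and MHC class I lists had no edgeR call in CAF1. In edgeR's test of the difference between the lines, 0 of 44, 1 of 21 and 0 of 22 members passed. The median differences, NF1 minus CAF1, were -0.73, -1.10 and -0.46, and 43, 19 and 21 members had a negative value. For most single members a difference between the lines is thus not shown. Of 44 antiviral genes 0 rose and 0 fell in CAF1, with a median of -0.25, and 0 of 21 GTPase and 0 of 22 MHC class I genes passed. At an unadjusted p under 0.05 these lists had 2, 1 and 3 lower and 0, 1 and 0 higher members in edgeR, and DESeq2 called 1, 0 and 0 lower and 0, 1 and 0 higher. Their levels in CAF1 were low before the knockdown: the median of the antiviral list was 3.097 CPM in the CAF1 controls against 72.4 CPM in NF1 with TGFb1, and 15 of 44 members were under 1 CPM. Ifnb1 had 0 counts in the 6 CAF1 libraries together. In the stress response list 2 rose and 0 fell of 38, and in DNA replication 0 rose and 5 fell of 42, against 1.29% of all genes higher and 1.08% lower. Their medians in CAF1 were 0.13 and -0.24. At an unadjusted p under 0.05 edgeR had 10 higher and 0 lower stress response genes, and 0 higher and 22 lower replication genes. The replication list had a similar median in NF1, at -0.23.

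A test of the difference between the lines called 3 of 15230 genes (0.0197%), each with a more negative effect in NF1, and 0 with a more positive one (0%). At an unadjusted p under 0.05 (4.85% of genes) edgeR had 426 lower and 313 higher, and DESeq2 called 71. Cell line and TGFb1 cannot be told apart in this difference, since the CAF1 libraries had vehicle. The 3 genes were Ly6e, a surface protein that interferon induces, Parp11, an ADP-ribosyltransferase, and the GTPase Irgm1. Ly6e was at 698, 653 and 542 CPM in the NF1 controls against 377, 366 and 365.5 CPM with siHsp90ab1, and at 327, 262 and 244 against 346, 278 and 254.5 CPM in CAF1. The NF1 groups were apart and the CAF1 groups overlapped, and the log2 effect in NF1 minus that in CAF1 was -0.83 ± 0.12 (adjusted p = 0.0179). For Parp11 it was -0.84 ± 0.11 (adjusted p = 0.0179) and for Irgm1 -1.22 ± 0.19 (adjusted p = 0.0366). The count was 0 without siHsp90ab1 replicate 1 or 2 or control replicate 1 in NF1, and without siHsp90ab1 replicate 1, 2 or 3 or control replicate 1 or 2 in CAF1. It was 1 without control replicate 2 in NF1 or control replicate 3 in CAF1, 7 without siHsp90ab1 replicate 3 and 11 without control replicate 3 in NF1.

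**Figure D5:**
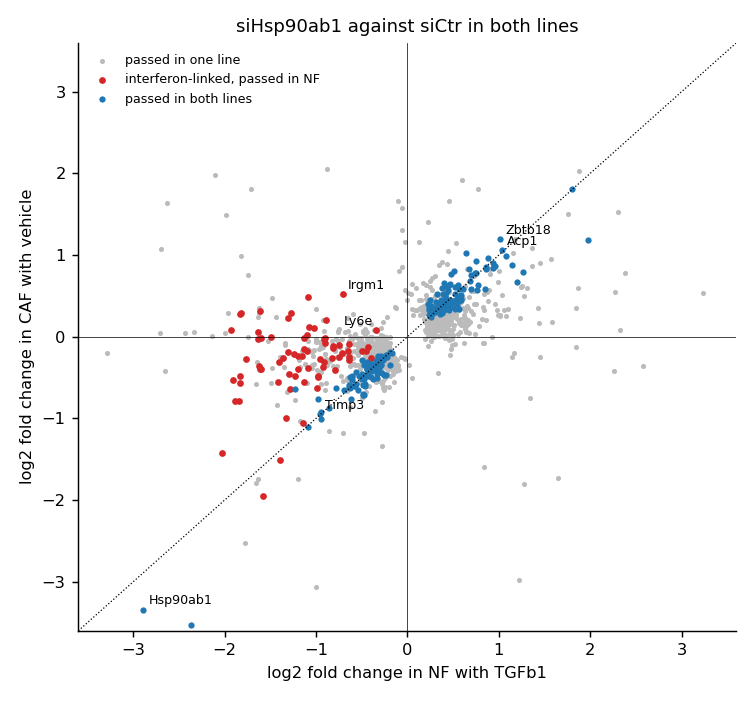
Log2 fold change with siHsp90ab1 in NF1 with TGFb1 (x axis) and in CAF1 with vehicle (y axis) of genes that passed in either line, with 210 genes that passed in both in blue, interferon-linked genes that passed in NF1 in red and a dotted line of equal change. The blue points lie near the dotted line, the red points lie left of zero, and 5 genes beyond 3.6 are not drawn. Over all tested members the antiviral, GTPase and MHC class I lists had CAF1 medians of -0.25, -0.26 and -0.09.

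Of 6 endothelial markers tested 1 rose in NF1, against 2.65% of all genes rising. Of 3 glial markers tested 1 rose, with a log2 fold change of 1.25. No marker of the other lists passed. Cdh5, the endothelial cadherin, was at 0.111, 0.109 and 0.0262 CPM in the controls and at 0.679, 0.332 and 0.222 CPM with siHsp90ab1 (log2 2.38, adjusted p = 0.0307), and stayed below 1 CPM. The sum of the endothelial markers was higher in each treated library than in each control, as given above, and so was that of the glial markers. The part of such cells in the other results was not tested.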

How the data were processed

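RNA of cultured mouse fibroblasts was sequenced as stranded mRNA libraries made with a TruSeq kit, per the labels' protocols. The authors deposited expected counts per gene, estimated with Salmon and not normalised, and TPM values scaled by transcript length. Per the submitters' processing notes, Salmon and STAR were used with GRCm38, while their versions and settings are not stated there. The expected counts were rounded to whole numbers (10.9% of values were not whole), and TPM served only to compare HSP90 genes.

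All 21 libraries (7 groups of 3) were fitted together with edgeR (version 4.0.16, under R 4.3.3), scaled by TMM after filterByExpr had kept genes by group at a minimum count of 10 and a total of 15, with a term for each group and the replicate number as a block, and contrasts were tested with the quasi-likelihood F test. Of 45706 genes 15230 were tested, p-values were adjusted by Benjamini-Hochberg within each of 5 contrasts, and the threshold was 0.05. Standard errors were derived from log2 fold change and F (its square root), at a prior count of 0.125. Levels are CPM on TMM-scaled library sizes. Between replicates, chi-square over its degrees of freedom was 16.3 to 48.6, well above the value of 1 that counting noise alone would give.

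The labels give the replicate number as a batch tag. Over 10374 genes, deviations from the group means of same-numbered libraries correlated at 0.423 to 0.626 in 3 of 3 pairs of the comparison. The mean of -0.243 for other numbers adds no separate evidence, since deviations within a group cancel out. Over all groups 56 of 63 same-numbered pairs were above 0.1, with a minimum of -0.0755, as were 14 of 126 pairs of other numbers. The numbers thus pair the libraries of the comparison, and pair those of the whole series less evenly.

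Members, gene lists, markers and the naming rule were chosen with earlier results of these data known. The text names all 4 HSP90 genes, the 15 top rises and falls by size (adjusted p under 0.05, at least 5 CPM in the higher group, one direction in all 3 pairs), the 3 members of each of 34 lists with the smallest p, the 8 largest differences each way between the siRNAs and the 5 largest each way between the lines. Alternatives were other normalisations, low-count filters, DESeq2 1.42.0, fewer libraries in the fit, a block within each line, no block and leaving out each library in turn. Promoters came from a RefSeq table (GRCm38.p6), coordinates and transcripts from GENCODE vM21. Some results that met the rule are not reported here.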

Additional observations from a re-analysis of the deposited data

Results flagged for a closer look

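The effect of siHsp90ab1 differed between NF1 with TGFb1 and CAF1 with vehicle in 3 genes by edgeR's test of the difference itself, and in each all 3 replicate pairs of NF1 were lower. For Ly6e the log2 effect in NF1 minus that in CAF1 was -0.83 (-0.76 ± 0.08 in NF1 and 0.07 ± 0.08 in CAF1, adjusted p of the difference 0.0179). For Parp11 it was -0.84 (-0.74 ± 0.08 and 0.10 ± 0.08, adjusted p 0.0179), with mean levels of 45.5 CPM in the NF1 controls and 11.97 CPM in the CAF1 controls. For Irgm1 it was -1.22 (-0.71 ± 0.13 and 0.52 ± 0.14, adjusted p 0.0366), with mean levels of 203 and 38.1 CPM. Line and TGFb1 cannot be told apart in these values.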

How the results depend on the processing

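The 902 calls of siHsp90ab1 against control in NF1 became 409 without the replicate block, 1585 in the 6 libraries alone with the block and 1622 with a block within each line, and 374 to 755 when 1 library was left out. The 885 to 924 calls with other scaling or a stricter filter, 710 with no filter, 978 in the 12 NF1 libraries and 1221 with DESeq2 stayed within 1.5 times. In CAF1 the 360 calls became 137 without the replicate block, 624 with DESeq2 and 878 with a block within each line, and 116 to 252 with 1 library left out. The 3 calls of the difference between lines became 1 without the replicate block, 10 with no filter on low counts, 71 with DESeq2 and 32 with a block within each line, and 0 to 11 with 1 library left out. The 6420 calls between the siRNAs stayed within 1.5 times, at 4908 to 6292 with 1 library left out. Of 95 named genes that passed, 45 passed in every fit, 44 lost the call without the block, 42 without at least 1 library, 1 in DESeq2, 2 in the 6 libraries alone and 10 with other scaling, filters, the 12 NF1 libraries or a block within each line, and 0 changed sign. Among genes without a call, the log2 fold change of Trap1 ran from -0.136 to 0.0283 with 1 library left out, positive without replicate 1 of either group, and that of Sema7a from -0.000348 (without siHsp90ab1 replicate 3) to 0.420. The cause of these changes was not tested, apart from fewer libraries where 1 was left out.

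The fallen antiviral genes numbered 27 to 43 over these fits, the GTPases 11 to 19, the MHC class I genes 9 to 19, the rising stress response genes 6 to 26 and the fallen replication genes 1 to 20. With 3 libraries a group and 1 line, small changes in single genes are not resolved, and genes of a few counts, such as Ifnb1, are limited by depth.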

Other observations

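Beyond the lists, genes that passed in both lines with a log2 fold change near or above 0.8 in each were looked at after their values were seen. The serotonin receptor gene Htr2b was higher by 1.80 in NF1 and 1.81 in CAF1, Lancl3 by 1.98 and 1.19, the exchange factor gene Dock8 by 0.96 and 0.86 and the dehydrogenase gene Dhrs9 by 0.86 and 0.82. Ppp1r14b, an inhibitor of protein phosphatase, was lower by 1.09 and 1.11 on the log2 scale (values of -1.09 and -1.11), the ATP-gated channel gene P2rx7 had -0.94 and -1.01, Klhl23 -0.95 and -0.92, the nuclear receptor gene Ppard -0.86 and -0.88, and Dag1, which encodes dystroglycan, -0.97 and -0.76. For these genes the difference between the lines did not pass edgeR's test, which called 3 of all 15230 genes. They were picked for large changes in both lines, so this does not show that the effects are equal.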
